A study of Mus musculus with 16 samples.

Results

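Astrocyte transcripts were followed in RNA from the CD11b+ fraction of the mouse brain through 9 genes that mark astrocytes, namely Aqp4, Gfap, Aldh1l1, Slc1a2, Slc1a3, Gja1, Aldoc, Gjb6, and S100b. The genes were chosen by name from the 24421 rows of the count table, and all 9 passed the filter on low counts, as did 14565 rows in all. Female C57BL/6J mice were compared in 3 groups. CON mice ate standard chow from weaning for a month (n = 4), MAL mice ate an isocaloric diet low in protein and fat (n = 5), and MAL-BG mice ate that low diet and were given a mix of E. coli and Bacteroidales species by oral gavage (n = 7). Mice outside the MAL-BG group were gavaged with PBS. There was no group given bacteria on the standard diet, so bacterial gavage was compared only within the low diet. The sample labels name cortical tissue and the Methods whole cerebra as the starting material, which was dissociated with enzymes and passed over CD11b MicroBeads to hold back microglia and other myeloid cells. Each library is 1 deposited sample. Replicate numbers below are those of the deposited columns, which match no sample title, and no source used here gives the batch of a column.

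Astrocytes are the glia that take up glutamate and potassium from the synaptic space, couple to each other through gap junctions, and wrap blood vessels with endfeet. They do not carry CD11b, so their transcripts reach a CD11b+ fraction with cells, fragments, or free RNA that the beads do not remove. Some of the 9 genes are also made elsewhere in the brain. S100b is made by oligodendrocytes, and Gja1 and Gjb6 are made by cells of the meninges. For no member was the cell of origin of its transcripts tested. In a bulk library of a selected fraction, fewer astrocytes, less RNA per astrocyte, and less astrocyte material passing the selection cannot be told apart. Neither the number of astrocytes in the brain nor their RNA content was measured.

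Library totals lay between 10312703 and 13461574 counts for CON, 10864121 and 12819982 for MAL, and 14191791 and 18705202 for MAL-BG. The defining markers of microglia were abundant in all 16 libraries, with 15 marker genes summing to between 19835 and 57055 CPM (counts scaled to a common library size, with sizes set by edgeR's TMM method). The 9 astrocyte genes together reached 161 to 650 CPM. In every library the 12 markers of choroid plexus epithelium summed to more than these 9 genes, at 1780 to 54274 CPM. Single libraries stood apart from their group for other cell types. MAL-BG replicate 5 had 12982 CPM over 10 neutrophil markers, against 197 to 2979 in the other MAL-BG libraries. CON replicate 4 had 1604 CPM over mural cell markers, against 291.5 to 879 in the other CON libraries. MAL-BG replicate 3 was close to it, at 1597 CPM. CON replicate 1 and MAL replicates 1 and 4 had the lowest choroid plexus sums of their groups. Results are given with and without these libraries where a call or direction rests on them.

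Positions are those of GENCODE M21 on the mouse genome GRCm38, and that of Aqp4 is not given here. Gfap (chr11:102887336-102900912), Slc1a3 (chr15:8634124-8710764), and Gjb6 (chr14:57123303-57133611) are on the minus strand. Aldh1l1 (chr6:90486427-90600203), Slc1a2 (chr2:102658659-102790784), Gja1 (chr10:56377330-56402513), S100b (chr10:76253853-76261159), and Aldoc (chr11:78322968-78327781) are on the plus strand. Exons of Aldh1l1 overlap the lincRNA Gm45901 on the same strand and an antisense gene, and exons of Slc1a2 overlap another antisense gene. The libraries were stranded, but the strand option of the counting is not given in the sources used here, so the counts of these 2 genes may include or exclude such reads.

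Promoter sequence is shown for 3 members that behaved differently, from RefSeq's GRCm38.p6 table. Aldoc fell with MAL-BG, Slc1a3 did not pass the threshold, and S100b did not pass it but carries the same motif as Aldoc. Each stretch is read in the direction of its gene, ends before the first annotated exon, and lies within 250 bases before a RefSeq start site. They are chr11:78322823-78322967 on the plus strand, chr15:8710808-8711057 on the minus strand, and chr10:76253586-76253835 on the plus strand.
Aldoc: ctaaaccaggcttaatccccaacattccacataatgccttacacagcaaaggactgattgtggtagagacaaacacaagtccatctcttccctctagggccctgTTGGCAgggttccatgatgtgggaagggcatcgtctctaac
Slc1a3: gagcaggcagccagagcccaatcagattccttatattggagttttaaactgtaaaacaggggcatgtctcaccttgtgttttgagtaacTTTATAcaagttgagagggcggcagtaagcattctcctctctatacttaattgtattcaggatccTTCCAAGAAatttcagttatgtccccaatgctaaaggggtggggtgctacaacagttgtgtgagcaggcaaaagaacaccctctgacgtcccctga
S100b: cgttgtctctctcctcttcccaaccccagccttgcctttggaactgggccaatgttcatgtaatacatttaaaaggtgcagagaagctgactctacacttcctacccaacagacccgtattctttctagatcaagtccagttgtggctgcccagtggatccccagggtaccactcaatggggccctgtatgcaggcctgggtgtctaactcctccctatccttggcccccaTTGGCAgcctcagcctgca
Capitals in Aldoc and S100b mark the half-site TTGGCA of nuclear factor I, a family of factors used in glial development. Capitals in Slc1a3 mark a match to TTCNNNGAA, the general letters of STAT sites, and TATAAA on the other strand. On either strand, TTGGCA was present in 12.3% of all 32851 RefSeq promoters, TTCNNNGAA in 7.02%, and TATAAA in 12.4%. Promoters were listed for 8 of the 9 members, with Aqp4 not shown. TTGGCA matched in 2 of these 8, TTCNNNGAA in 2 (Slc1a3 and another Aldoc promoter), and TATAAA in 1. The SOX letters AACAAT (9.42% of all promoters) and the E-box CAGCTG (13% of all promoters) matched in 0 of the 8. A match to so few letters is a description of the window and no evidence that a factor binds there.

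In MAL-BG, Aqp4, Gfap, Aldh1l1, Slc1a2, and Aldoc were below both CON and MAL, by 3.7-fold to 6.58-fold. Slc1a3, Gja1, Gjb6, and S100b did not pass the threshold in either comparison. With scaling by summed microglia markers all 9 passed against CON and 8 against MAL. Under that scaling 10986 of the 14565 tested genes passed against CON, 10944 of them lower. Against MAL 10336 passed, 10291 of them lower. Most tested genes thus passed as lower under that scaling, so passing there does not set the astrocyte genes apart. A differentially expressed gene (DEG) was one that moved by more than 0.58 on the log2 scale, in either direction, with a Benjamini-Hochberg adjusted p under 0.05 in the quasi-likelihood test of edgeR. On that rule 5 of the 9 astrocyte genes fell in MAL-BG relative to CON, as did 21.7% of all tested genes, and the same 5 fell relative to MAL, as did 20.2%. None of the 9 was higher, where 11.4% and 10.2% of all tested genes were. The median log2 fold change of the 9 genes was -2.14 against CON and -1.89 against MAL, beside -0.0412 and -0.0274 over all tested genes. Both comparisons use the same 7 MAL-BG libraries, so they are not independent of each other. The summed level of the 9 genes was 161 to 304 CPM in MAL-BG and 359 to 592 CPM in MAL, while the lowest CON library, replicate 1, had 290 CPM and the other 3 had 531 to 650 CPM.

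**Figure D1:**
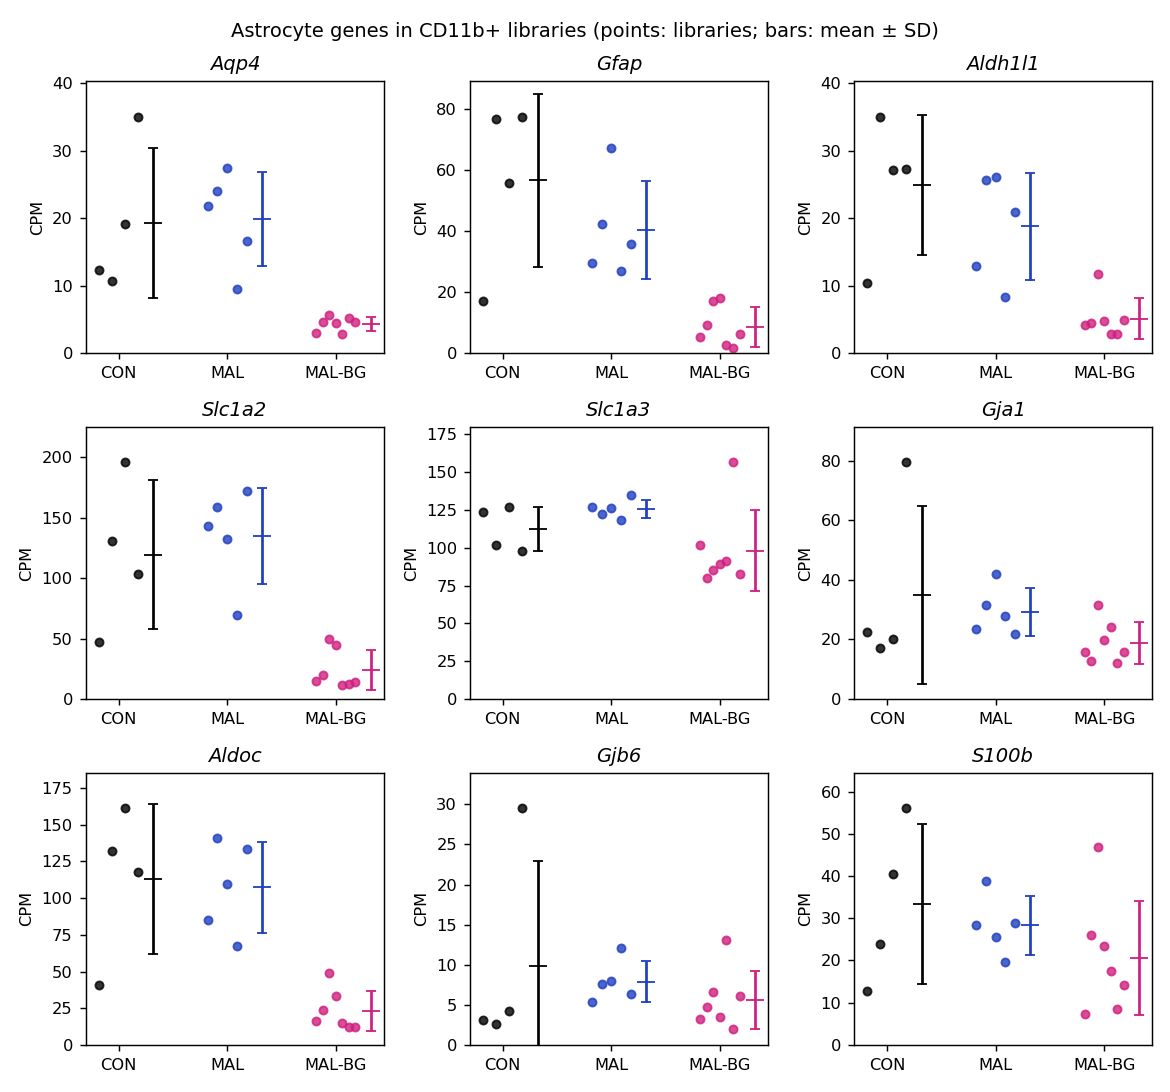
CPM of the 9 astrocyte genes in each library (points), by group, with the mean ± SD as bars (the lower bar of Gjb6 in CON would pass 0 and ends at the axis). Aqp4 in MAL-BG lay between 2.88 and 5.72 CPM, below all CON and MAL libraries, while Slc1a3 overlapped between the groups.

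Aqp4 encodes the water channel of astrocyte endfeet. It was at 12.3, 10.7, 19.1, and 35.05 CPM in CON replicates 1 to 4 and at 21.8, 24.0, 27.4, 9.59, and 16.6 CPM in MAL replicates 1 to 5. In MAL-BG it ranged from 2.88 to 5.72 CPM with a median of 4.6, from 51 to 88 counts per library. It was the only member whose 7 MAL-BG libraries lay below all CON libraries, as in 11.1% of all tested genes, and below all 9 other libraries, as in 6.36%. Against CON the log2 fold change was -2.14 ± 0.314 (SE, adjusted p = 9.98e-05), and against MAL it was -2.19 ± 0.301 (adjusted p = 6.14e-05). Its MAL-BG libraries were also the least spread of the 5 genes that fell, with a coefficient of variation of 24.4%.

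Of the other aquaporins, Aqp1, the channel of choroid plexus epithelium, was also lower, at 111 ± 52.8 CPM in CON (SD, n = 4) and 15.9 ± 9.84 in MAL-BG (SD, n = 7), a log2 fold change of -2.80 (adjusted p = 3.29e-04). Aqp11 (-0.23, adjusted p = 0.636) and Aqp9 (1.22, adjusted p = 0.0602) did not pass against CON, and 3 of the 7 aquaporins listed were not tested. Aqp4 is anchored at endfeet by the dystrophin complex, and 4 of 8 of its partners fell in MAL-BG relative to CON. Agrn, which encodes agrin of the basal lamina, fell by 0.61 on the log2 scale (adjusted p = 0.0429). The 3 others, named after their values were seen, were the syntrophin gene Sntb1 (-3.28, adjusted p = 1.13e-04) and the dystrobrevin genes Dtna (-2.24, adjusted p = 3.01e-04) and Dtnb (-0.83, adjusted p = 0.0131). Sntb1 was at 9.37 ± 3.90 CPM in CON and 0.956 ± 0.744 in MAL-BG. Utrn (-0.34, adjusted p = 0.397) and Dag1 (-0.27, adjusted p = 0.274) did not pass.

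Gfap encodes the intermediate filament protein of astrocytes and is the usual marker of their reactive state. CON replicates had 17.05, 76.5, 55.6, and 77.4 CPM, and MAL replicates had 29.5, 42.2, 67.0, 27.0, and 35.6 CPM. MAL-BG libraries ranged from 1.84 to 18.1 CPM with a median of 6.16. All MAL-BG libraries were below all MAL libraries, as in 8.95% of all tested genes, and only CON replicate 1 fell inside the MAL-BG range. The log2 fold change was -2.72 ± 0.509 against CON (SE, adjusted p = 5.67e-04) and -2.23 ± 0.487 against MAL (adjusted p = 0.00179), the largest difference from CON among the 9 genes. Gfap also had the widest relative spread of the 5 fallen genes in MAL-BG, where the highest library held 9.8 times the CPM of the lowest.

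Genes that astrocytes raise when reactive were set beside all tested genes, of which 11.4% were higher and 21.7% lower in MAL-BG relative to CON. Of 28 listed, 25 were tested, with 2 higher and 3 lower in MAL-BG relative to CON, and their median was -0.12 on the log2 scale. The most abundant were Vim, another filament gene (305.8 ± 137.5 CPM in CON, 256 ± 73.7 in MAL-BG, adjusted p = 0.459), Srgn (adjusted p = 0.409), Psmb8 (0.58 higher on the log2 scale, adjusted p = 0.00173), and Ggta1 (adjusted p = 0.892). The calls outside these were chosen after their values were seen. Lcn2, which neutrophils also make, rose from 4.59 ± 2.96 CPM in CON to 139.7 ± 253 in MAL-BG (log2 fold change 4.94, adjusted p = 0.00566). MAL-BG replicate 5 alone held 704 CPM of Lcn2, and without it the other 6 MAL-BG libraries were at 45.6 ± 47.5 CPM (log2 fold change 3.29, adjusted p = 0.00655). Cxcl10 (-1.09, adjusted p = 0.00698), Cd109 (-2.12, adjusted p = 0.00309), and Sphk1 (-1.94, adjusted p = 0.033) fell. All 10 neutrophil markers rose as well, and their part in the Lcn2 result was not tested.

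Aldh1l1 encodes a folate enzyme, 10-formyltetrahydrofolate dehydrogenase, and marks astrocytes broadly. It was at 10.4, 35.1, 27.1, and 27.3 CPM in CON and at 12.9, 25.7, 26.2, 8.30, and 20.9 CPM in MAL. MAL-BG libraries had between 2.82 and 11.7 CPM with a median of 4.44. MAL-BG replicate 3, the highest, overlapped with CON replicate 1 and MAL replicate 4, and the other 6 MAL-BG libraries were below all others. On the log2 scale the difference was -2.30 ± 0.391 against CON (SE, adjusted p = 2.85e-04) and -1.89 ± 0.374 against MAL (adjusted p = 8.8e-04).

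The other genes of the folate pathway went in both directions. Of 10 tested enzymes of one-carbon metabolism, 3 rose and 4 fell in MAL-BG relative to CON, and their median was -0.04 on the log2 scale. Among the most abundant were Mthfd1 (-0.61, adjusted p = 0.00643) and the mitochondrial enzymes Mthfd2 (1.25, adjusted p = 4.24e-04) and Shmt2 (0.35, adjusted p = 0.0399, under the fold threshold). Aldh1l2, the mitochondrial relative of Aldh1l1, was named after its value was seen and fell by 0.61 on the log2 scale (adjusted p = 0.0445).

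Astrocytes clear glutamate with 2 transporters, of which 1 was called. Slc1a2 encodes GLT-1, which carries most glutamate uptake in the adult forebrain, and Slc1a3 encodes GLAST. Slc1a2 was at 47.4, 130.4, 195.7, and 103.6 CPM in CON and at 143.4, 158.7, 132.3, 69.5, and 171.8 CPM in MAL, while in MAL-BG it ranged from 11.99 to 49.9 CPM with a median of 14.6. MAL-BG lay below all MAL libraries, and only CON replicate 1 lay under the highest MAL-BG library, replicate 3. The log2 fold change was -2.32 ± 0.424 against CON (SE, adjusted p = 4.78e-04) and -2.50 ± 0.409 against MAL (adjusted p = 2.22e-04).

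Slc1a3 was at 123.3, 102.0, 126.6, and 98.1 CPM in CON and at 126.6, 122.5, 126.0, 118.1, and 134.7 CPM in MAL. In MAL-BG it ranged from 79.8 to 156.4 CPM with a median of 89.5, and replicate 6 was the highest of all 16 libraries. The groups overlapped, with a log2 fold change of -0.20 ± 0.155 against CON (SE, adjusted p = 0.311) and of -0.36 ± 0.145 against MAL (adjusted p = 0.0544). Without MAL-BG replicate 6 these were -0.35 (adjusted p = 0.00719) and -0.51 (adjusted p = 3.86e-04), still under the fold threshold. The place of Slc1a3 depended on the scaling of the libraries. Against CON and MAL it was -1.21 and -1.30 with scaling by summed microglia markers, which moved the median of all genes to -1.06 and -0.96, and 0.27 and 0.12 with length and GC offsets plus mean log2 CPM scaling, which moved that median to 0.248 and 0.238.

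The ratio of Slc1a2 to Slc1a3 counts within a library does not depend on scaling. CON had a median of 1.17 (0.384 to 1.55), MAL of 1.13 (0.588 to 1.3), and MAL-BG of 0.168 (0.0775 to 0.587). The lowest ratio outside MAL-BG was again in CON replicate 1. In that library Slc1a3, at 123.3 CPM, lay inside the range of the other CON libraries. Slc1a3 was also the only member positively related to microglia markers within groups (r = 0.40). The cells that gave the Slc1a3 counts were not tested, so the ratio need not describe astrocytes alone. Of the summed CPM of the 9 genes, Slc1a3 made up a median of 19.3% for CON, 23.6% for MAL, and 50.4% for MAL-BG. These ratios were formed after the values of both genes were known and carry no test.

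Of the glutamate transport and glutamine cycle genes, 10 of 12 were tested, with 1 rising and 4 falling in MAL-BG relative to CON. Glul, the glutamine synthetase that astrocytes and microglia both make, was at 2321 ± 345 CPM in CON and 1938 ± 122 in MAL-BG (-0.26, adjusted p = 0.0898). Slc38a3, the glutamine exporter of astrocytes, fell by 1.58 on the log2 scale (adjusted p = 0.00355), and Slc38a2 fell by 0.65 (adjusted p = 0.0125). The vesicular transporter Slc17a7, which belongs to excitatory neurons, fell most, from 16.5 ± 11.03 CPM in CON to 0.544 ± 0.269 in MAL-BG (-4.93, adjusted p = 6.15e-06). Slc38a5 rose by 1.41 (adjusted p = 0.0153). Slc38a1 (-0.33, adjusted p = 0.0239) was under the fold threshold, and Slc1a1 did not pass (0.43, adjusted p = 0.306).

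Gja1 and Gjb6 encode connexin 43 and connexin 30, the subunits of astrocyte gap junctions. Gja1 was at 22.6, 17.0, 20.2, and 79.4 CPM in CON and at 23.4, 31.6, 42.0, 27.9, and 21.8 CPM in MAL, with a range of 12.2 to 31.7 CPM and a median of 15.9 in MAL-BG. CON replicate 4 stood alone, and the other 3 CON libraries lay inside the MAL-BG range. On the log2 scale the difference was -0.88 ± 0.366 against CON (SE, adjusted p = 0.0587) and -0.63 ± 0.346 against MAL (adjusted p = 0.145).

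The call for Gja1 turned on single libraries. Against CON it passed without CON replicate 1 (-1.04, adjusted p = 0.0375), CON replicate 2 (-1.11, adjusted p = 0.0293), CON replicate 3 (-1.07, adjusted p = 0.0385), MAL-BG replicate 3 (-1.05, adjusted p = 0.0247), or MAL-BG replicate 5 (-0.98, adjusted p = 0.0491). Without CON replicate 4 the difference from CON shrank to -0.08 (adjusted p = 0.845), while that from MAL passed (-0.63, adjusted p = 0.0342).

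Gjb6 was at 3.15, 2.597, 4.18, and 29.5 CPM in CON and at 5.36, 7.53, 8.001, 12.1, and 6.37 CPM in MAL. In MAL-BG it ranged from 2.02 to 13.1 CPM with a median of 4.75. CON replicate 4 and MAL-BG replicate 5 were each far above the rest of their group, and the groups overlapped. The log2 fold change was -0.82 ± 0.584 against CON (SE, adjusted p = 0.266) and -0.49 ± 0.555 against MAL (adjusted p = 0.489). Without CON replicate 4 the difference from CON turned to 0.76, still without passing. Without that library and MAL-BG replicate 5, left out together after seeing the data, it was 0.37 against CON (adjusted p = 0.444) and -0.88 against MAL (adjusted p = 0.0261).

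Of 9 tested connexin genes, MAL-BG raised 1 and lowered 0 relative to CON, and raised 4 and lowered 0 relative to MAL. Of all tested genes, 11.4% were higher and 21.7% lower relative to CON, and 10.2% and 20.2% relative to MAL. The arterial connexins Gja4 (1.39, adjusted p = 0.018) and Gja5 (1.67, adjusted p = 0.0111) and the oligodendrocyte connexin Gjb1 (1.78, adjusted p = 0.0111) rose against MAL on the log2 scale. Gjb2, a partner of Gjb6 in astrocytes and meninges, was at 7.32 ± 9.01 CPM in CON and 3.26 ± 2.05 in MAL-BG (-1.17, adjusted p = 0.103).

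Aldoc encodes aldolase C, the brain form of the glycolytic enzyme, which in the forebrain is made mainly by astrocytes. It was at 41.2, 132.3, 161.3, and 117.9 CPM in CON and at 85.2, 140.8, 109.6, 67.3, and 133.7 CPM in MAL. In MAL-BG it ranged from 12 to 49.2 CPM with a median of 15.98. All MAL-BG libraries were below all MAL libraries, and CON replicate 1 was the only CON library under the highest MAL-BG library. On the log2 scale the difference was -2.30 ± 0.384 against CON (SE, adjusted p = 2.5e-04) and -2.22 ± 0.368 against MAL (adjusted p = 2.44e-04). The broadly made Aldoa fell by 0.61 on the log2 scale against CON (adjusted p = 0.0153) and was -0.42 against MAL (adjusted p = 0.0676). The count ratio of Aldoc to Aldoa had a median of 0.194 for CON, 0.206 for MAL, and 0.04 for MAL-BG.

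S100b encodes a calcium-binding protein of astrocytes and oligodendrocytes. It was at 12.8, 23.9, 40.6, and 56.1 CPM in CON and at 28.5, 38.9, 25.6, 19.7, and 29.0 CPM in MAL, and from 7.37 to 46.8 CPM with a median of 17.5 in MAL-BG. The 3 groups overlapped. The log2 fold change was -0.70 ± 0.430 against CON (SE, adjusted p = 0.194) and -0.47 ± 0.407 against MAL (adjusted p = 0.364). MAL-BG replicate 3 was the highest MAL-BG library, and without it the difference from CON passed (-1.05, adjusted p = 0.0321). Of 14 oligodendrocyte markers, 4 rose and 0 fell relative to CON. Summed, they reached 1635 to 2293 CPM in CON and 2007 to 2734 CPM in MAL-BG, and their part in the S100b result was not tested.

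**Figure D2:**
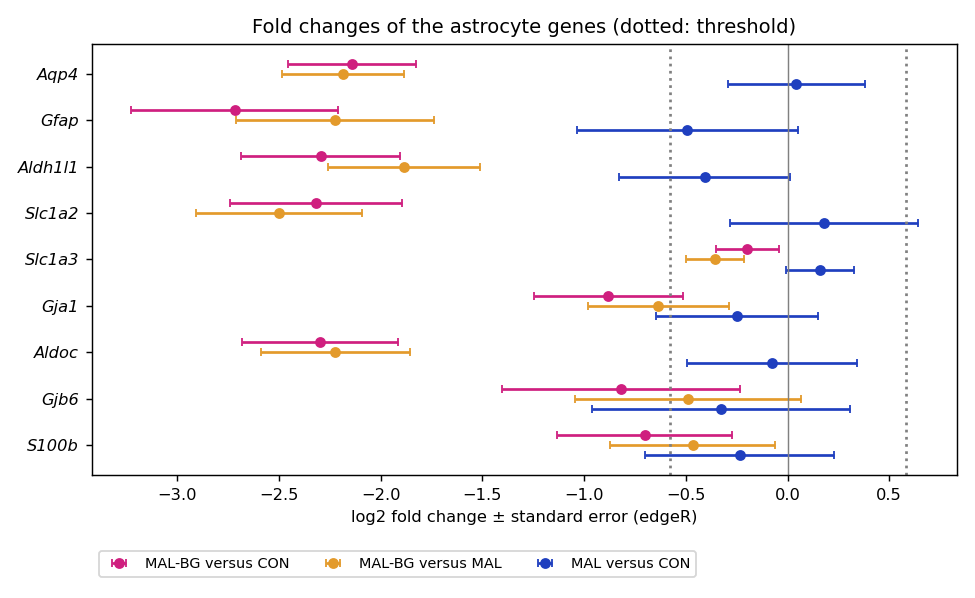
Log2 fold change ± SE of each astrocyte gene in the 3 comparisons, from edgeR's quasi-likelihood fit, with the fold threshold of 0.58 as dotted lines. The 5 called genes lie between -2.72 and -1.89 in both MAL-BG comparisons, and all 9 lie between -0.49 and 0.18 for MAL versus CON.

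Between MAL and CON no astrocyte gene was called. The log2 fold changes ran from -0.49 for Gfap to 0.18 for Slc1a2, and for Gfap the SE was 0.544. edgeR called 0 of 14565 genes in this comparison, as did DESeq2 and limma voom. An unadjusted p under 0.05 was reached by 212, 241, and 198 genes in these tools, by 0 of the 9 astrocyte genes in each, and the smallest unadjusted p of the 9 in edgeR was 0.344.

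Per kilobase of exon, the order of the members changed with the group. In CON, Aldoc was highest (34.7 ± 15.7 CPM per kb, SD, n = 4), followed by S100b (22.5 ± 12.8), Gfap (13.4 ± 6.70), Slc1a3 (13.2 ± 1.70), Slc1a2 (9.08 ± 4.69), Aldh1l1 (5.53 ± 2.30), Gjb6 (3.69 ± 4.91), Gja1 (3.39 ± 2.91), and Aqp4 (3.09 ± 1.79). Every pair of neighbours in this order overlapped between libraries. The order in MAL again began with Aldoc and S100b, and only Slc1a3 and Slc1a2, and Gfap and Aldh1l1, were neighbours without overlap. In MAL-BG, S100b (13.8 ± 9.11 CPM per kb, SD, n = 7) and Slc1a3 (11.5 ± 3.13) came first and Aldoc (7.05 ± 4.22) next, while Slc1a2 was at 1.82 ± 1.24 and Aqp4 last at 0.701 ± 0.171. Neighbours in the MAL-BG order overlapped throughout.

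Other genes of astrocytes also fell. Of 49 further astrocyte genes tested, 28 fell and 0 rose in MAL-BG relative to CON, while 32 fell and 0 rose relative to MAL, and their medians were -1.03 and -1.09 on the log2 scale. Among the 4 most abundant, Clu, which encodes the chaperone clusterin, was at 641 ± 266 CPM in CON and 172 ± 99.0 in MAL-BG (-1.90, adjusted p = 0.00188). Slco1c1, a thyroid hormone transporter of astrocytes and endothelium, was at 246 ± 95.3 and 133 ± 42.4 CPM (-0.89, adjusted p = 0.0347). Sparcl1, a synapse-promoting matrix protein, did not pass (-0.16, adjusted p = 0.679). The count against MAL dropped to 21 without MAL replicate 2.

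**Figure D3:**
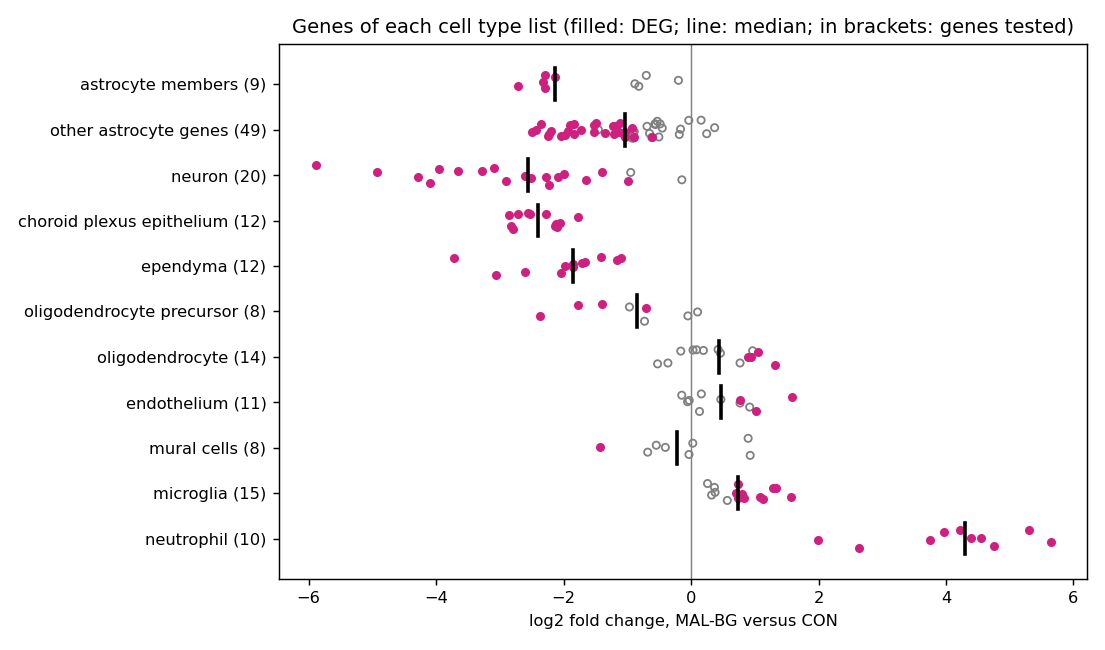
Log2 fold change, MAL-BG versus CON, of every tested gene of each cell type list (filled points are DEGs, lines are list medians, numbers of genes in brackets). The medians were -2.14 for the 9 astrocyte genes and -1.03 for further astrocyte genes, beside -2.56 for neuron, -2.41 for choroid plexus epithelium, 0.74 for microglia, and 4.30 for neutrophil markers.

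Markers of several other cell types also fell in MAL-BG, while those of others did not. Against CON, 18 of 20 neuron markers were lower and 0 higher (median log2 fold change -2.56), and Camk2a, a kinase of excitatory neurons, was at 161.5 ± 98.6 CPM in CON and 8.31 ± 2.10 in MAL-BG. All 12 choroid plexus markers and all 12 ependyma markers were lower, with medians of -2.41 and -1.85. Of 8 oligodendrocyte precursor markers tested 4 were lower and 0 higher, and of 12 meningeal fibroblast markers, a list chosen after seeing the data, 4 were lower and 0 higher. Of 14 oligodendrocyte markers 4 were higher and 0 lower (median 0.44). Of 11 endothelial markers 3 were higher and 0 lower, and of 8 mural cell markers 0 were higher and 1 lower. Microglia markers were higher in 10 of 15 genes and lower in 0, and all 7 MAL-BG libraries exceeded all CON and MAL libraries in their sum, 41882 to 57055 CPM against 19835 to 34862 CPM.

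Neuron markers summed to 211 to 892 CPM for CON, 227 to 724 for MAL, and 63.1 to 160 for MAL-BG. Choroid plexus markers summed to 13986 to 54274 CPM for CON, 6494 to 42676 for MAL, and 1780 to 16636 for MAL-BG. The summed CPM of the 9 astrocyte genes over that of neuron markers had a median of 0.999 for CON, 1.26 for MAL, and 1.98 for MAL-BG. The MAL-BG ratios (1.52 to 3.38) were above all CON ratios, which reached 1.37, and overlapped slightly with MAL (0.788 to 1.58). With Slc1a3 left out of the sum, a choice made after seeing the data, the ratios of the 3 groups overlapped, at 0.587 to 0.893 for CON, 0.602 to 1.1 for MAL, and 0.805 to 1.36 for MAL-BG. The part that these other cell types, or the purity of the fraction, had in the astrocyte result was not tested.

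**Figure D4:**
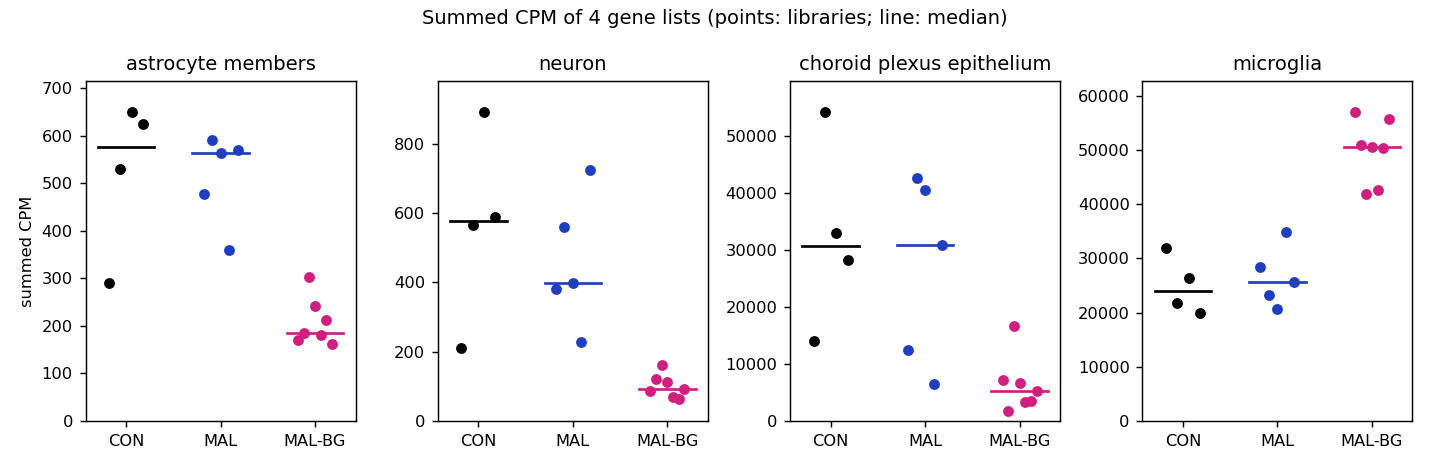
Summed CPM of the 9 astrocyte genes and of the marker lists for neuron, choroid plexus epithelium, and microglia in each library (points; lines are group medians). The astrocyte, neuron, and choroid plexus sums are low in MAL-BG, where the microglia sum is high, and CON replicate 1 (290 CPM) is low among controls for astrocyte genes, neurons, and choroid plexus alike.

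The members also separated into sets by how they varied within the groups. For each pair, Pearson's r was taken over the deviations of log2 CPM from the group means in the 16 libraries, where all genes of a library share its depth and cell makeup, and is given as a description. Slc1a2 and Aldoc followed each other most closely (r = 0.95), and Aldh1l1 and Gfap went with Aldoc (0.85 and 0.84). S100b, although it was not called, went with Aldoc as well (0.82). Gja1 and Gjb6 formed a pair (0.83) and were weakly related to Slc1a2 (0.17 and -0.07). CON replicate 4 stood far above the other CON libraries for both connexins (Gja1 79.4 CPM, next 22.6, and Gjb6 29.5 CPM, next 4.18). It entered these values of r, and r without it was not computed. Aqp4 was related to no member above 0.58. Slc1a3 was negatively related to all 8 others, from -0.01 with Aqp4 to -0.63 with Gfap.

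**Figure D5:**
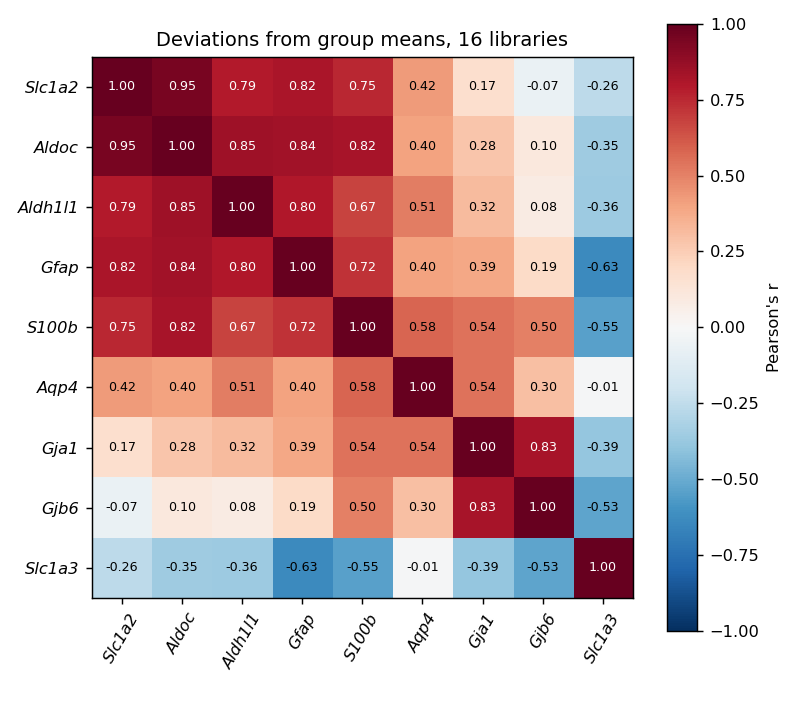
Pearson's r between astrocyte genes over deviations of log2 CPM from the group means in 16 libraries (each cell is 1 pair). Slc1a2, Aldoc, Aldh1l1, Gfap, and S100b form a block with r of 0.67 to 0.95, Gja1 and Gjb6 a pair at 0.83, and the row of Slc1a3 is negative throughout. CON replicate 4, which was far above the other CON libraries for both Gja1 and Gjb6, is included.

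The same sets differed in which other lists they followed. Within groups, Aldoc varied with the neuron markers (0.90), as did Slc1a2 (0.86) and Aldh1l1 (0.82), and Aldh1l1 with further astrocyte genes (0.92) and ependyma (0.87). The relation was not particular to neurons. Aldoc, Slc1a2, and Aldh1l1 also varied with endothelium markers (0.79, 0.76, and 0.82) and with mural cell markers (0.82, 0.71, and 0.79). Gja1 and Gjb6 had lower values with neuron markers (0.18 and 0.14) and their highest, among the other cell types, with meningeal fibroblast markers (0.72 and 0.75), which Gja1 shared with oligodendrocyte markers (0.72). Slc1a3 was the only member positively related to microglia markers (0.40), the other 8 lying between -0.83 and -0.39. Among 13778 other genes with a mean of at least 1 CPM, those whose deviations were most like the mean of the 9 members were A4galt (r = 0.965), a row whose name reads as a date (0.961), Mcc (0.961), Ece1 (0.958), and Mllt3 (0.955). Of these 5, A4galt was higher in MAL-BG than in CON (log2 fold change 1.21, adjusted p = 0.0385), opposite to the fallen members. The 50 genes most like the members included 2 endothelium markers and 1 further astrocyte gene.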

How the data were processed

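Raw counts per gene were deposited by the authors for 16 libraries of CD11b+ cells, without normalization. Stranded poly(A) libraries were read as pairs, aligned to GRCm38.p6 with STAR, and counted with HTSeq (version 2.5 per the labels). The counting annotation is not given in the sources used here. Groups were read from the names of the columns. The 14565 genes exceeding 10 counts in 4 or more libraries were fitted over all 3 groups with TMM scaling and the quasi-likelihood test of edgeR 4.0.16 in R 4.3.3, with Benjamini-Hochberg adjustment within each comparison. The code of the study adds a batch term, which was not fitted because no source used here names the batch of a column. Log2 CPM used a prior count of 2. DESeq2 1.42.0 and voom of limma 3.58.1 were alternatives, beside other scalings, filters, thinning, length and GC offsets (known for 99.3% of tested genes), and leaving libraries out. The steps were tested on simulated data. Libraries of a group differed beyond counting noise (smallest chi-square over degrees of freedom 9.8), and the p-values measure the spread between these samples.

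The members and lists were chosen with earlier results of these data known. All 9 members are named, the 4 most abundant tested genes of each further list may be, as may every connexin, aquaporin, aldolase, and glutamate transport gene, and the 5 genes most like the members. A few genes that this naming rule covers are left out of the text. One list, meningeal fibroblasts, and 2 alternatives were chosen after seeing the data. Exon lengths are from GENCODE M21.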

Additional observations from a re-analysis of the deposited data

Results flagged for a closer look

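Of 27 groups of values tested with Dixon's criterion (9 genes in 3 groups), 5 held a library far from the rest of its group, where chance alone gives about 1 in 20. CON replicate 4 was high for both connexins, with Gja1 at 79.4 CPM (next highest CON library 22.6) and Gjb6 at 29.52 CPM (next 4.18). MAL-BG replicate 5, the library with the most neutrophil transcripts, had 13.07 CPM of Gjb6 (next 6.55). MAL-BG replicate 3 had 11.72 CPM of Aldh1l1 (next 4.90). It also had the highest sums of endothelium (4281 CPM) and choroid plexus markers (16636 CPM) of the MAL-BG libraries. MAL-BG replicate 6 had 156.4 CPM of Slc1a3 (next 101.5) and the fewest neuron (63.1 CPM) and ependyma transcripts (36 CPM) of that group.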

How the results depend on the processing

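Aqp4, Gfap, Aldh1l1, Slc1a2, and Aldoc kept their direction and their call in both MAL-BG comparisons under all 30 alternatives run. Scaling by summed microglia markers called 10986 genes against CON (42 higher, 10944 lower) and 10336 against MAL, 9 and 8 of the members, and 47 further astrocyte genes against CON. This follows from the construction, since those markers were higher in MAL-BG. Against CON, 1659 genes were higher and 3161 lower with TMM, 1047 and 3619 with library totals, and 3604 and 2268 with length and GC offsets plus mean log2 CPM scaling. With the latter Slc1a3 turned to 0.272 against CON and 0.119 against MAL. Without the fold threshold 6566 and 6457 genes passed.

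Leaving out 1 library at a time gave 4081 to 5456 calls against CON and 3854 to 4932 against MAL, 5 to 7 and 5 to 6 members, and 20 to 38 and 21 to 37 further astrocyte genes. Gjb6 against CON ranged from -1.219 to 0.755 in these fits. Without CON replicate 4 and MAL-BG replicate 5 together it was 0.365. MAL versus CON held 0 calls under every alternative, and its small log2 values changed sign in several. Leaving out single libraries, Aldoc ranged from -0.354 to 0.145, Aqp4 from -0.155 to 0.504, Gja1 from -0.473 to 0.559, Gjb6 from -0.642 to 1.246, S100b from -0.506 to 0.137, and Slc1a2 from -0.084 to 0.528. With limma voom Aldoc was 0.035, Gja1 0.0024, and Gjb6 0.377. Aqp4 was -0.057 with microglia scaling. Without CON replicate 4 and MAL-BG replicate 5 together, Gja1 was 0.558, Gjb6 1.244, and S100b 0.133. The cause was not tested. Gja1 passed against CON with DESeq2 (adjusted p = 0.0437), thinned libraries (0.0499), and library totals (0.0431). The members' counts per library ran from 28 (Gjb6, CON) to 2631 (Slc1a3, MAL-BG). No paired analysis was possible because the numbers of the columns match no sample title and carry no shared litter, day, or batch.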
